A study of Mus musculus with 8 samples.

Results

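These results describe trimethylation of histone H3 at lysine 36 (H3K36me3) in mouse C3H10T1/2 cells that carried a mutant or a wild-type H3.3 transgene. The members are all 4999 regions of the deposited H3K36me3 peak table, of 7689 regions in the 3 peak tables of the series; the others are 1691 H3K36me2 and 999 H3K27me3 regions. C3H10T1/2 is an established line of mesenchymal progenitor cells from C3H mouse embryos. Both groups stably expressed FLAG-HA-tagged H3.3 and were grown to passages 10 to 15. In 1 group the tagged H3.3 was wild type (WT), and in the other it carried the K36M mutation, methionine in place of lysine 36. The promoter of the transgene, and whether each line came from 1 clone, are not given in the labels. A 5% share of Drosophila S2 chromatin went into both before precipitation, and the authors scaled the reads of each region to it. Each group has 1 library, so no comparison has a replicate check and none was tested. Intervals are exact Clopper-Pearson 95% intervals on reads, which cover counting error only.

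H3.3 is the H3 variant that is placed into chromatin outside of DNA replication, mostly at transcribed genes and regulatory regions. SETD2, which travels with elongating RNA polymerase II, trimethylates lysine 36 over gene bodies, and the mark is usually strongest toward the 3′ part of a gene. It is known to recruit the DNA methyltransferase DNMT3B and to limit spurious transcription inside genes. H3 K36M is an oncohistone of chondroblastoma that acts on the lysine 36 methyltransferases of the cell, so that H3 molecules without the mutation also lose methylation.

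Peaks are placed on the mouse build mm9, with starts and ends as deposited. No mm9 annotation was used, and gene names below are provisional: they rest on recalled gene positions, many of them recalled on a later build and shifted by the offset of other genes nearby. The names of the most and least changed domains were assigned in that way after these regions had been seen. Exons, introns and UTRs were not assigned, and a region can hold further genes. Of 14 genes named at those long domains, 8 had an entry in the RefSeq promoter table of build GRCm38.p6 and Nfatc1 was not looked up. The 250 bases before the start site are printed for the first gene with a single entry on each side, to show the sequence upstream of a strongly and a weakly depleted gene. CpG dinucleotides are in capitals. Col11a1 (window at GRCm38.p6 chr3:114030290-114030539, plus strand) is named at a strongly depleted domain. Huwe1 (window at GRCm38.p6 chrX:151803032-151803281, plus strand) is named at a weakly depleted one. The domains are on mm9, and whether the windows lie inside them was not checked.
Col11a1: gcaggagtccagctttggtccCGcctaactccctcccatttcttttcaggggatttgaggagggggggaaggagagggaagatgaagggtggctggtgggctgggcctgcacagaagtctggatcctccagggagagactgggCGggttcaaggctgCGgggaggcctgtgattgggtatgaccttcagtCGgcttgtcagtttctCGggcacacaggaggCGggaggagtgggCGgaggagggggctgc
Huwe1: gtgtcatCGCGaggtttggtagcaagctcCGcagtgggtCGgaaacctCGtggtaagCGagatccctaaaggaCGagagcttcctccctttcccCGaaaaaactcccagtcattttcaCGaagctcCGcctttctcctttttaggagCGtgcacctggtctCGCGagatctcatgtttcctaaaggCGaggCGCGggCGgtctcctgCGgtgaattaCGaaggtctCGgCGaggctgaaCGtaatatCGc
Searched for the letters CG, the Col11a1 window held 7 CpGs and the Huwe1 window 23. Of 32851 promoter windows of the same length, 46.3% held at least 7 and 13.3% at least 23, and the median was 6. The number did not separate the 2 sides. Among the strongly depleted genes, the 3 entries of Sorbs2 had 7, 7 and 3, Lgr4 had 10, Dclk2 21 and Ehbp1 31. Among the weakly depleted genes, Fat1 had 2 and Mical2 17.

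Every listed region had less H3K36me3 in K36M, with a median 3.28-fold difference. The median WT density was 18.8 normalized reads per kb, with quartiles of 16.1 and 22.1. In K36M the median was 5.74 and the quartiles were 4.69 and 7.10. The ranges of the 2 libraries overlapped in part: 498 regions (9.96%) had more signal per kb in K36M than the sparsest WT region, at 8.86, and 6 had more than the WT median. A reduction of 2-fold or more was seen in 4926 of 4999 regions (98.5%) and one of 4-fold or more in 498 (9.96%), while 0 (0%) were 2-fold or more higher. The library used for peak calling is not given, and calling in WT alone would leave out regions gained in K36M. The extremes, chosen after the values were seen, were both shorter than the median region. A 2.2 kb region on chromosome 9, from 31937400 to 31939599, carried 61.6 normalized reads in WT against 4.18 in K36M, a ratio of 0.0678 (0.0398 to 0.109) that rests on 19 K36M reads. A 15.6 kb region on chromosome 13, from 33120600 to 33136199, had 274 and 186, a ratio of 0.679 (0.614 to 0.752).

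Densities kept much of their order but were spread more widely in K36M. Across the 4999 regions, log2 densities in WT and K36M had a Pearson correlation of 0.82, given as a description because the regions of a library share its depth and factor. The SD of log2 density was 0.34 for WT and 0.46 for K36M, so the K36M spread was 1.35 times as wide. Scatter between regions that is unrelated to their WT density also widens the K36M spread, so this ratio does not show that the loss depended on density. The density at the 95th percentile was 2.16 times that at the 5th in WT and 2.82 times in K36M. When the regions were divided into 5 groups of equal size by the geometric mean of both densities, median densities in the sparsest group were 14.3 in WT and 4.00 in K36M, and its median fold was 3.58. The densest group had 25.8 and 8.84, and a median fold of 2.91. In between, the median folds were 3.39, 3.29 and 3.19. Reductions of 4-fold or more made up 24.5% of the sparsest and 3.20% of the densest group. The density that formed the groups holds the same values as the ratio, so these are descriptions.

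**Figure D1:**
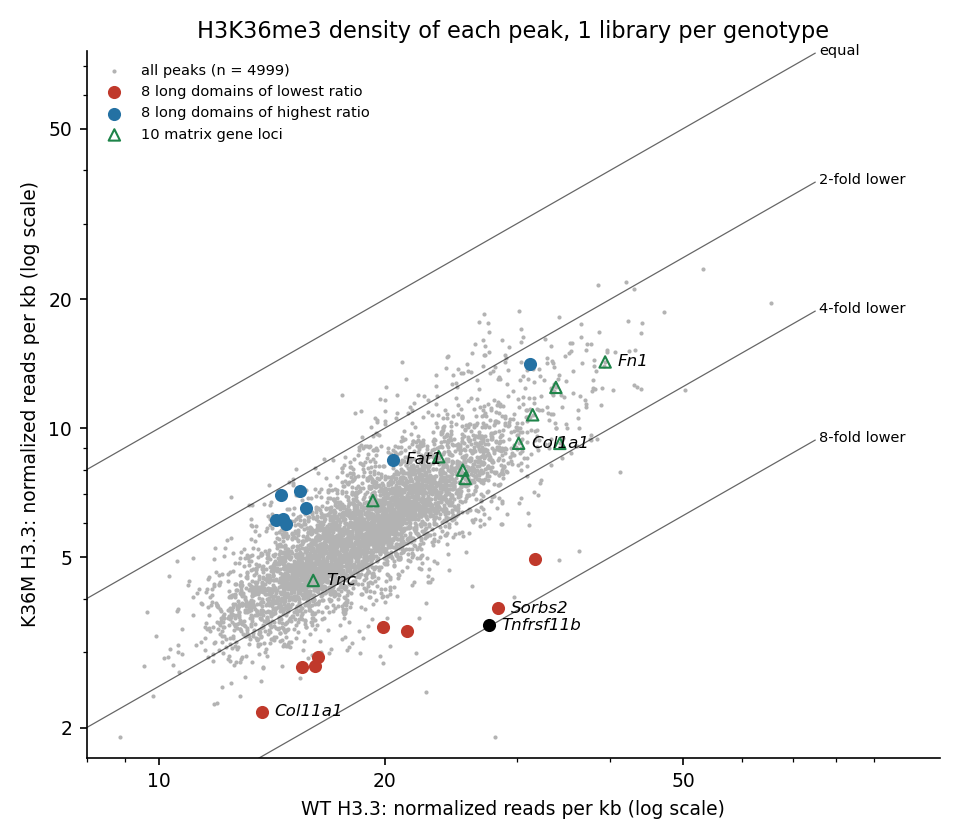
Each grey point is 1 of the 4999 H3K36me3 regions, with its WT density on the x axis and its K36M density on the y axis (normalized reads per kb, both log scales); lines mark fixed fold differences. All points lie below the line of equality, and Sorbs2 and Tnfrsf11b (black) lie near the 8-fold line. The 10 loci of the matrix list, which leaves out Col11a1, lie between the 2-fold and 4-fold lines.

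Longer domains were slightly more depleted, and short peaks varied most. The 659 peaks below 12 kb had medians of 21.1 normalized reads per kb in WT and 7.17 in K36M, and a median log2 ratio of −1.61. The 1128 peaks from 20 to 35 kb had 19.0 and 5.85, with a median log2 ratio of −1.71. The 44 domains of 200 kb or more had 17.5 and 5.03, with −1.81, or 3.50-fold lower. The order held over all 7 length classes, yet the quartiles of neighbouring classes overlapped widely. The SD of the log2 ratio was 0.37 below 12 kb, where counting error alone would give 0.14, and 0.25 from 200 kb, where it would give 0.025. The difference between domains of 100 kb or more and peaks below 12 kb was −0.15 (log2), and it was −0.097 among regions with a density between the quartiles.

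**Figure D2:**
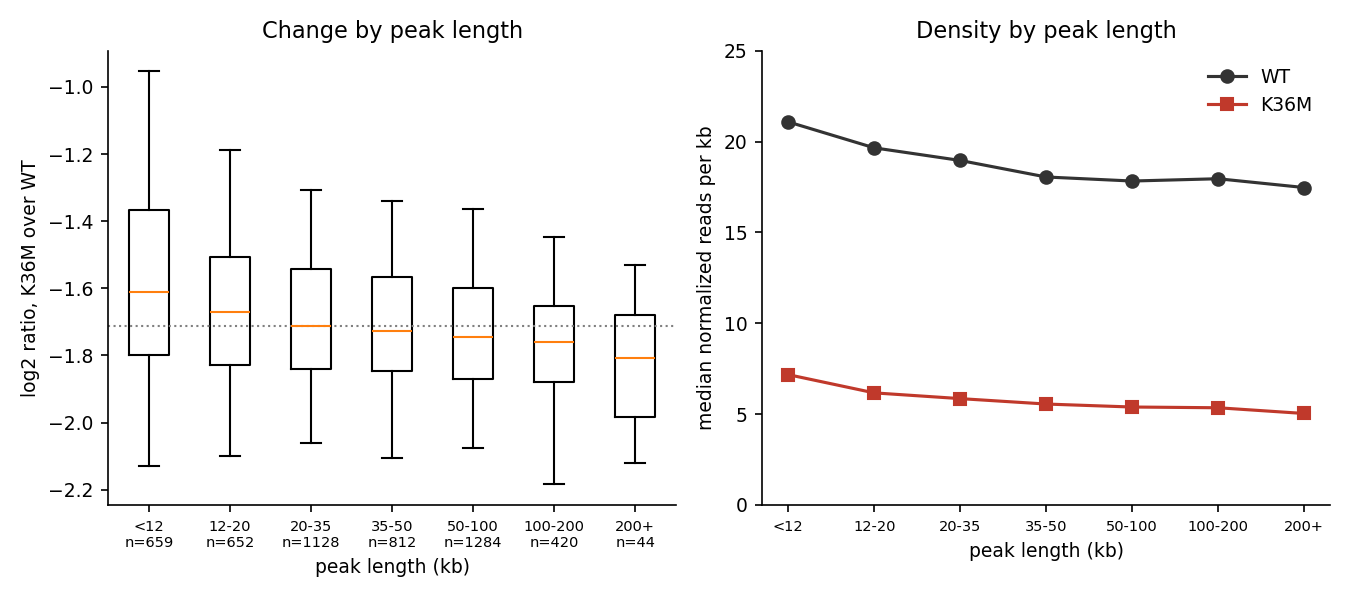
Left, log2 ratio of K36M over WT in 7 length classes (box, quartiles; line, median; whiskers, 5th to 95th percentile; dotted, median of all peaks). Right, median density of each class in normalized reads per kb; the median ratio is −1.61 below 12 kb and −1.81 from 200 kb, with wide overlap between classes.

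The 464 domains of 100 kb or more were 27.7% of the listed length and held 27.8% of the lost signal. All 464 passed the 2-fold line, and 63 (13.6%) the 4-fold line, against 98.5% and 9.96% of all regions. Their total was 1202530 normalized reads in WT against 351863 in K36M, a ratio of 0.293, against 0.309 for the shorter peaks. Of them, 48 (10.3%) overlapped an H3K36me2 peak by at least 1 bp, against 6.52% of all H3K36me3 peaks and 10.8% of those below 12 kb.

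The 8 most depleted long domains were 5.55-fold to 7.46-fold lower. Sorbs2, an adaptor protein of actin stress fibres, lies in a 197 kb domain on chromosome 8 from 46720800 to 46917799. It had 5582 normalized reads in WT against 748 in K36M, 7.46-fold lower (7.19 to 7.75), in a domain denser than most in WT (28.3 per kb) and sparser than most in K36M (3.80 per kb). Scara5, a ferritin receptor of stromal cells, had 3169 and 496 over 100 kb on chromosome 14 from 66285400 to 66385399, 6.39-fold lower (6.10 to 6.70). Col11a1, a fibrillar collagen of cartilage, had 2597 and 413 on chromosome 3 from 113734600 to 113924199, 6.30-fold lower (5.98 to 6.63). The WT densities of Scara5 and Col11a1 were far apart, at 31.7 and 13.7 per kb. These 3 domains overlapped no listed H3K36me2 or H3K27me3 peak.

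R-spondins are secreted proteins that strengthen WNT signalling by binding LGR4 and its relatives. The main Rspo2 domain, on chromosome 15 from 42806800 to 42973199, carried 3557 normalized reads in WT against 558 in K36M, 6.37-fold lower (6.10 to 6.66). The Lgr4 domain, on chromosome 2 from 109758600 to 109863599, had 2090 and 361, 5.79-fold lower (5.47 to 6.12). The median folds of all regions were 3.69 on chromosome 15 and 3.25 on chromosome 2. From 40 to 50 Mb on chromosome 15, where Rspo2 lies, the 13 regions had a median log2 ratio of −2.29. A link between the 2 genes was not tested. The other 3 of the 8 lowest were Ehbp1, which links endosomes to actin, Dclk2, a doublecortin-like kinase of microtubules, and a domain on chromosome 10 from 109114400 to 109221799 that is given no gene name here. Ehbp1 had 4549 and 787 on chromosome 11 from 21904800 to 22186799. Their folds were 5.78, 5.55 and 5.59, so the 8 lowest ratios ran from 0.134 to 0.180.

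The least depleted long domains had ratios of 0.405 to 0.479. The first lay on chromosome 13 from 66998600 to 67108399 over Uqcrb, Mterf3 and Ptdss1, which serve respiration, mitochondrial transcription and phosphatidylserine synthesis. It had 1596 normalized reads in WT against 765 in K36M, 2.09-fold lower (1.99 to 2.18). Huwe1, a ubiquitin ligase gene on chromosome X from 148272400 to 148372999, had 1548 and 719, 2.15-fold lower (2.05 to 2.25). Mical2, an actin-oxidizing enzyme gene on chromosome 7 from 119371000 to 119502399, had 1878 and 804, 2.34-fold lower (2.24 to 2.44). Nfatc1, a calcium-regulated transcription factor gene on chromosome 18, was 2.39-fold lower. Domains without a gene name here on chromosome 1 (181989000 to 182099999) and chromosome 2 (22632600 to 22732799) were 2.41-fold and 2.47-fold lower. The median folds of all regions of chromosomes 13, X and 18 were also low, at 2.51, 2.65 and 2.64, against 3.28 over all regions. The other least depleted domains lay on chromosomes 1, 2, 7 and 8, which had median folds of 3.18 to 3.33. Of the 8 least depleted, 6 had a WT density of 14.3 to 15.7 per kb, below the medians of all regions (18.8) and of all long domains (17.9). Among the most depleted, Col11a1, Ehbp1, Dclk2 and the chromosome 10 domain were also below both, at 13.7 to 16.3. The others of that group had 19.9 to 31.7. The WT value is part of the ratio by which both groups were chosen.

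The only one of the 8 least depleted domains that overlapped peaks of the other marks lies on chromosome 1 from 90101600 to 90206799, is not given a gene name here, and had 3283 normalized reads in WT against 1487 in K36M, 2.21-fold lower (2.14 to 2.28). Its density was 31.2 per kb in WT and 14.1 in K36M. The H3K36me2 peaks that overlap it had 6478 and 3623, a ratio of 0.559. The H3K27me3 peaks that overlap it had 1194 and 1712, a ratio of 1.43.

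A strongly and a weakly depleted domain lay close together on chromosome 8. Fat1, a large cadherin gene, and Sorbs2 have 574 kb between their domains and 1 listed region in the gap. Fat1, from 46025000 to 46147199, carried 2503 normalized reads in WT against 1030 in K36M, a ratio of 0.411 (0.396 to 0.427). The region in the gap, from 46418800 to 46441199, had 514 and 159, a ratio of 0.309 (0.282 to 0.338). Sorbs2 had 0.134 (0.129 to 0.139), so the 3 counting intervals do not overlap. Over the whole table, adjacent regions less than 20 kb apart differed by a median of 0.15 on the log2 scale (933 pairs). The median was 0.19 at 100 to 1000 kb (1979 pairs) and 0.24 beyond that (586 pairs). A difference over 1 was found in 0 of the 933 closest pairs and in 17 of the 1979. Such neighbours share a library, and regions under 20 kb apart can belong to 1 gene.

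**Figure D3:**
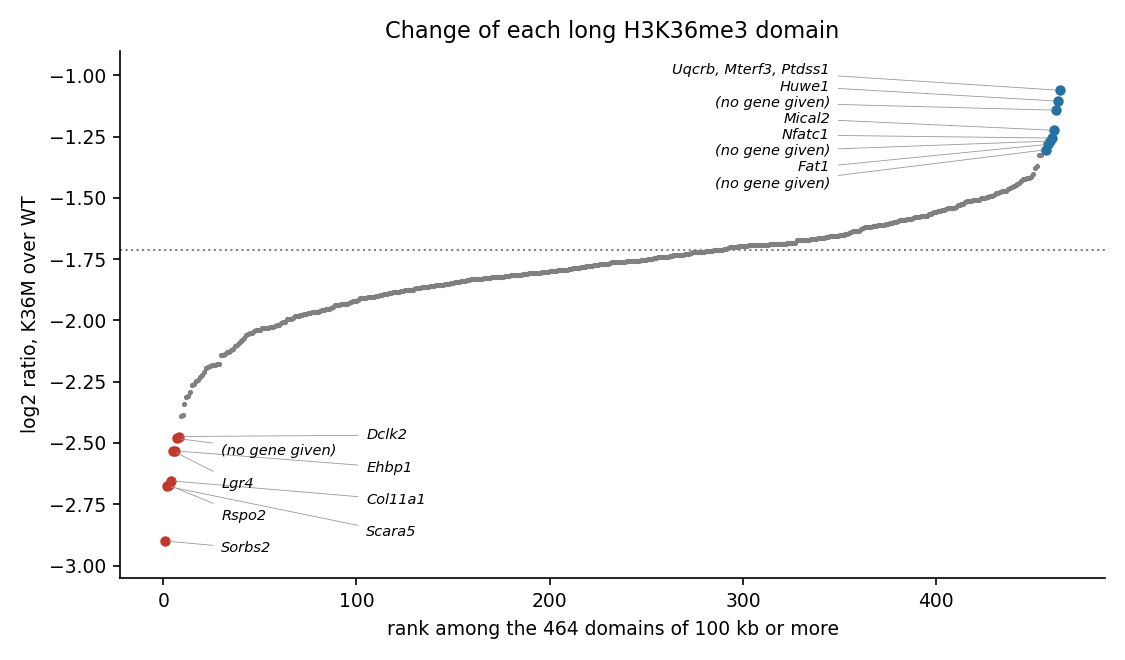
The 464 H3K36me3 domains of 100 kb or more, ranked by log2 ratio of K36M over WT on the y axis; the dotted line is the median of all peaks. The 8 lowest (red) reach −2.90 at Sorbs2 and the 8 highest (blue) −1.06 at Uqcrb, Mterf3 and Ptdss1.

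The 6 long domains with the most WT signal had folds from 2.91 to 4.79. Asap1, a GTPase-activating protein of focal adhesions, had 26.8 normalized reads per kb in WT and 9.23 in K36M, 2.91-fold lower (2.85 to 2.97). Myo10, an unconventional myosin of filopodia on chromosome 15 from 25552400 to 25749999, had 28.5 and 5.96, 4.79-fold lower (4.64 to 4.94). The 2 domains had similar WT densities on the same chromosome. A domain over Arfgap3 and Pacsin2, on chromosome 15 from 83109400 to 83338199, carried 5701 normalized reads in WT against 1376 in K36M, 4.14-fold lower. A domain without a gene name here, on chromosome 1 from 33914800 to 34130799, had 5819 and 1944, 2.99-fold lower. The longest region, 331 kb on chromosome 4 from 57580600 to 57911599, was 3.90-fold lower. The domain over Rps6kb1, Tubd1, Vmp1, Ptrh2 and Cltc was 3.49-fold lower.

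The gene lists below were chosen with earlier results known, and Sorbs2, Tnfrsf11b and Rspo2 were loci already in view when the lists were made. As a check of the labelled cell type, all 6 of Col1a1, Col1a2, Col3a1, Fn1, Vim and Pdgfra overlapped a listed region, and 0 of 7 genes of blood, epithelium, liver, neural tissue and cardiac muscle did (Ptprc, Epcam, Cdh1, Alb, Pax6, Gfap and Myh7). Positions were recalled, so a misplaced gene would also show no region, and the share of all genes with a region was not counted. The 0 of 7 therefore says little about the cell type. The mark shows transcription only indirectly, and RNA was not analysed here.

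The listed matrix genes had a higher median density than all regions in both libraries. Of 11 matrix genes 10 had a region, Postn being without one. All 10 passed the 2-fold line and 0 the 4-fold line, against 98.5% and 9.96% of all regions. Their median was 27.9 normalized reads per kb in WT and 8.89 in K36M, and their median fold was 3.06, against 3.28 over all regions. Fn1, the fibronectin gene on chromosome 1 from 71603800 to 71699399, carried 3762 normalized reads in WT against 1364 in K36M, 2.76-fold lower. At 14.3 per kb in K36M it still had more signal than the 5th percentile of WT regions, at 13.2. Col1a2, on chromosome 6 from 4455800 to 4492999, had 1258 and 463, 2.72-fold lower, and Col1a1, on chromosome 11 from 94791000 to 94827199, had 1092 and 334, 3.27-fold lower. These genes encode the chains of type I collagen, and their ratios of 0.368 (0.348 to 0.389) and 0.306 (0.287 to 0.325) had counting intervals that do not overlap. Their chromosomes differed in the same order, with median folds of 3.07 on chromosome 6 and 3.54 on chromosome 11. Col3a1 was 2.75-fold, Col5a2 2.85-fold and Col5a1 2.93-fold lower. Sparc, which encodes a collagen-binding matrix protein, was the most depleted of the list at 3.72-fold. The list does not cover all matrix genes. Col11a1 and Prelp, which are outside it and were named for their low ratios, were 6.30-fold and 7.39-fold lower.

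Cytoskeletal and adhesion genes had regions in 11 of 11 cases, with a median fold of 3.19. All 11 passed the 2-fold line and 1, Sorbs2, the 4-fold line, close to the 98.5% and 9.96% of all regions. Vim, which encodes the intermediate filament vimentin, had the highest density of the listed genes, with 43.2 normalized reads per kb in WT and 15.2 in K36M, 2.84-fold lower. Actb, the cytoplasmic actin gene, had 37.1 and 11.2, a ratio of 0.303, and Myh9, a non-muscle myosin gene, 36.3 and 10.0, 3.63-fold lower. Without Sorbs2 the folds of the list ran from 2.73 at Tpm1 to 3.63 at Myh9.

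The signalling and transcription factor genes had the widest range. All 9 had a region, 9 passed the 2-fold line and 3 the 4-fold line, against 98.5% and 9.96% of all regions, and the median fold was 3.40. Of those 3, Tnfrsf11b and Rspo2 were already in view. Tnfrsf11b encodes osteoprotegerin, the secreted decoy receptor that blocks bone resorption. Its region, on chromosome 15 from 54073200 to 54109599, was 7.94-fold lower, from 27.5 to 3.46 per kb. The 2 regions of Rspo2 together were 6.49-fold lower, from 23.2 to 3.58 per kb. Myc, a growth-promoting transcription factor gene, had 254 normalized reads in WT against 63.4 in K36M, a ratio of 0.250 (0.216 to 0.287), so counting error alone spans the 4-fold line. Runx2, the regulator of bone formation, was 3.56-fold lower, Pdgfra 2.86-fold, and Smad3, an effector of TGF-beta, 2.68-fold. Cdk6 was the least depleted at 2.40-fold, with 13.3 per kb in WT.

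Of the 9 signalling genes, 2 overlapped H3K36me2 peaks, which were also lower in K36M. H3K36me2 peaks that overlap Tnfrsf11b had 9547 normalized reads in WT against 1558 in K36M, a ratio of 0.163. Those at Rspo2 had 4933 and 892, a ratio of 0.181. Outside that list, those at Myo10 had 10706 and 2332, a ratio of 0.218. The marks differ in antibody, peaks and spike-in factor, so these ratios stand side by side only. At Lpp, which encodes an adhesion adaptor, H3K36me3 had a ratio of 0.310 and the overlapping H3K36me2 peaks 0.540.

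Of the genes of the methyltransferases themselves, Setd2 and Whsc1 were near the median of all regions and Nsd1 was less depleted. Setd2 was 3.18-fold lower, from 18.1 to 5.67 normalized reads per kb. Whsc1, also called Nsd2, was 3.15-fold lower, from 18.8 to 5.98. Nsd1, which lies on chromosome 13, was 2.51-fold lower, from 19.0 to 7.58. The median fold of all regions of chromosome 13 was also 2.51, against 3.48 on chromosome 9 (Setd2) and 3.50 on chromosome 5 (Whsc1). The housekeeping genes Gapdh, Eef2 and Cltc were 2.70-fold, 2.68-fold and 3.49-fold lower.

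**Figure D4:**
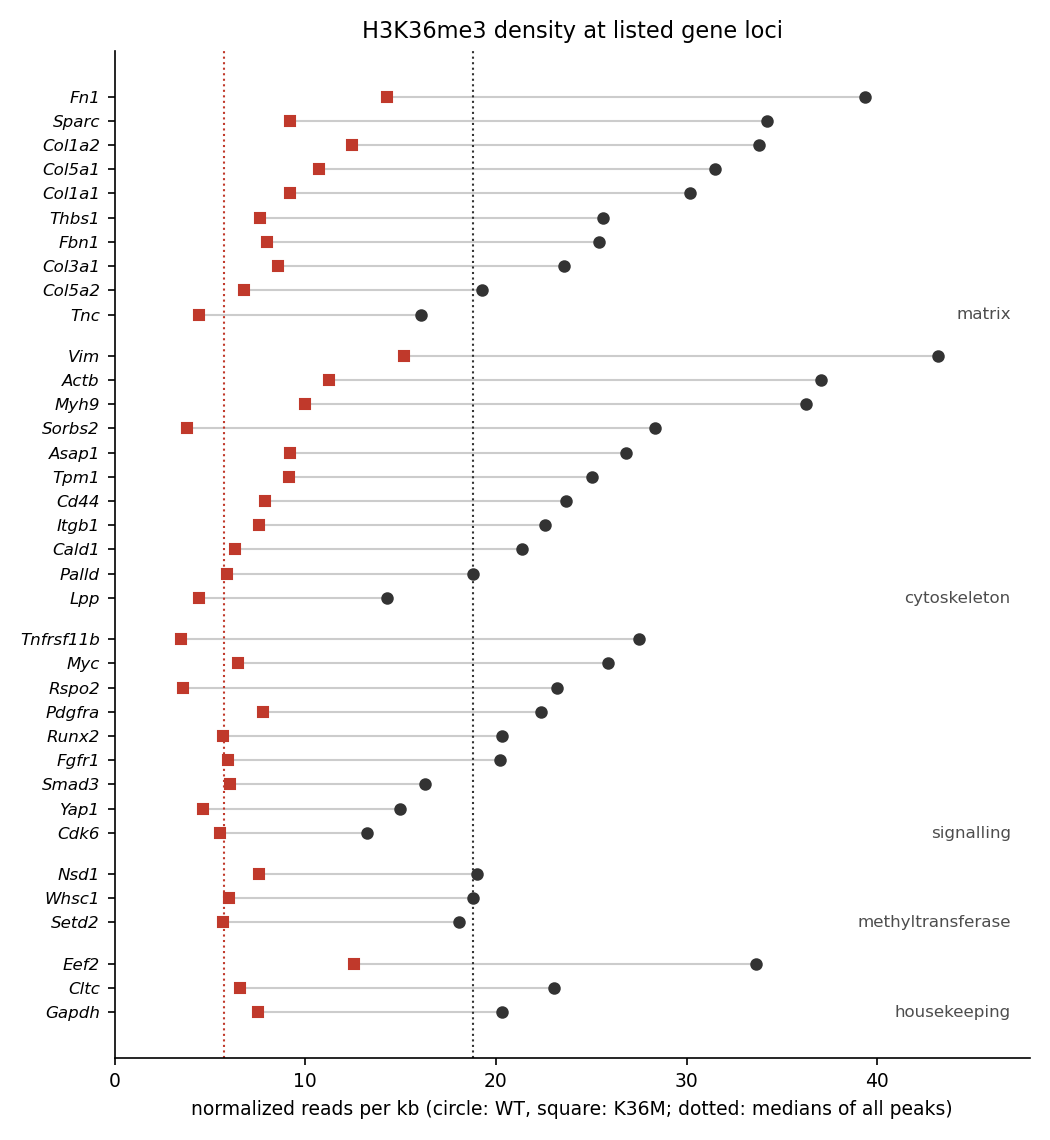
H3K36me3 density at 36 listed gene loci in normalized reads per kb, with a circle for WT and a square for K36M (1 library each) and dotted lines at the medians of all peaks. Every square lies left of its circle, Vim and Fn1 are the densest in both, and Sorbs2, Tnfrsf11b and Rspo2 go from above the WT median to below the K36M median.

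Among peaks below 12 kb with at least the median signal of that class, the most depleted lay on chromosome 15 from 40926200 to 40937399 and has no gene name here. It had 254 normalized reads in WT against 27.1 in K36M, 9.38-fold lower (7.73 to 11.5). Prelp, a matrix proteoglycan gene, was 7.39-fold lower, and Ptx3, a secreted pentraxin gene, 5.20-fold lower. A region on chromosome 15 from 50487000 to 50496999 was 5.53-fold lower. The least depleted were 2 regions on chromosome 4, from 145021800 to 145043799, with ratios of 0.664 and 0.679, and a region on chromosome 13 from 81026800 to 81036999, with 215 and 146, a ratio of 0.677 (0.603 to 0.759).

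Of the 73 regions that were less than 2-fold lower, 43 (58.9%) were below 12 kb, and 27 lay on chromosomes 13, 18 and X, which hold 370 regions (7.40% of all). Most of these were on chromosome 13, with 21 of its 185 regions, and chromosome X had 4 of 67. Chromosome 18 had only 2 of 118, close to the share of 73 in all 4999 regions. Such regions also lay on chromosomes 4 (13 of 289), 5 (8 of 333) and 6 (6 of 182). H3K36me2 peaks overlapped 28 of the 73 (38.4%) and H3K27me3 peaks 12 (16.4%), against 6.52% and 0.920% of all regions. Among all regions below 12 kb, the class of most of the 73, the shares were 10.8% and 3.64%. Of the 498 regions at least 4-fold lower, 55 overlapped H3K36me2 and 0 overlapped H3K27me3. The part of the other marks in these ratios was not tested.

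The ratio also differed between chromosomes. On chromosome 13, 178 of 185 regions (96.2%) had a ratio above the median of all regions, on chromosome 18 111 of 118 (94.1%) and on chromosome X 64 of 67 (95.5%). Windows of 10 Mb were computed for chromosomes 13, 15 and 18 only, which were chosen with earlier results known. The windows hold the same regions, so they describe the spread along a chromosome and are no separate support. The median lay above that of all regions in 12 of 12 windows of chromosome 13 (−1.44 to −1.19) and in 9 of 9 of chromosome 18 (−1.49 to −1.23). On chromosome 15 it lay below in 11 of 11 windows (−2.29 to −1.74). The lowest of these, from 40 to 50 Mb, held 13 regions. The medians of the other 17 chromosomes, 15 included, ran from −1.88 to −1.62.

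The densities behind these ratios differed between chromosomes. On chromosome 13 the median WT density was 0.911 times that of all regions and the K36M density 1.17 times. Chromosome X had 0.879 and 1.10, and chromosome 18 had 0.920 and 1.14. On chromosome 15, WT was 1.17 times and K36M 0.975 times the density of all regions. On chromosome 9 both were below, at 0.926 and 0.855, and on chromosome 19 both were 1.09 times as high. Reductions of 4-fold or more were seen in 79 of 279 regions of chromosome 15 (28.3%) and in 0 of 185 of chromosome 13, against 9.96% over all. On the log2 scale, chromosome medians of H3K36me2 and H3K27me3 also differed from those of all peaks of the mark. The differences were 0.137 and 0.263 on chromosome 13 and 0.156 and 0.0583 on chromosome 18. Chromosome X had 0.488 and 0.575, and chromosome 15 −0.0855 and −0.140. On chromosome 11, H3K36me3 had −0.109, H3K36me2 0.174 and H3K27me3 −0.0595. Only 2 H3K36me2 peaks lay on chromosome X and 4 H3K27me3 peaks on chromosome 18. What sets these differences was not tested. With 1 library of each line, a difference between the lines and one between the genotypes cannot be told apart.

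**Figure D5:**
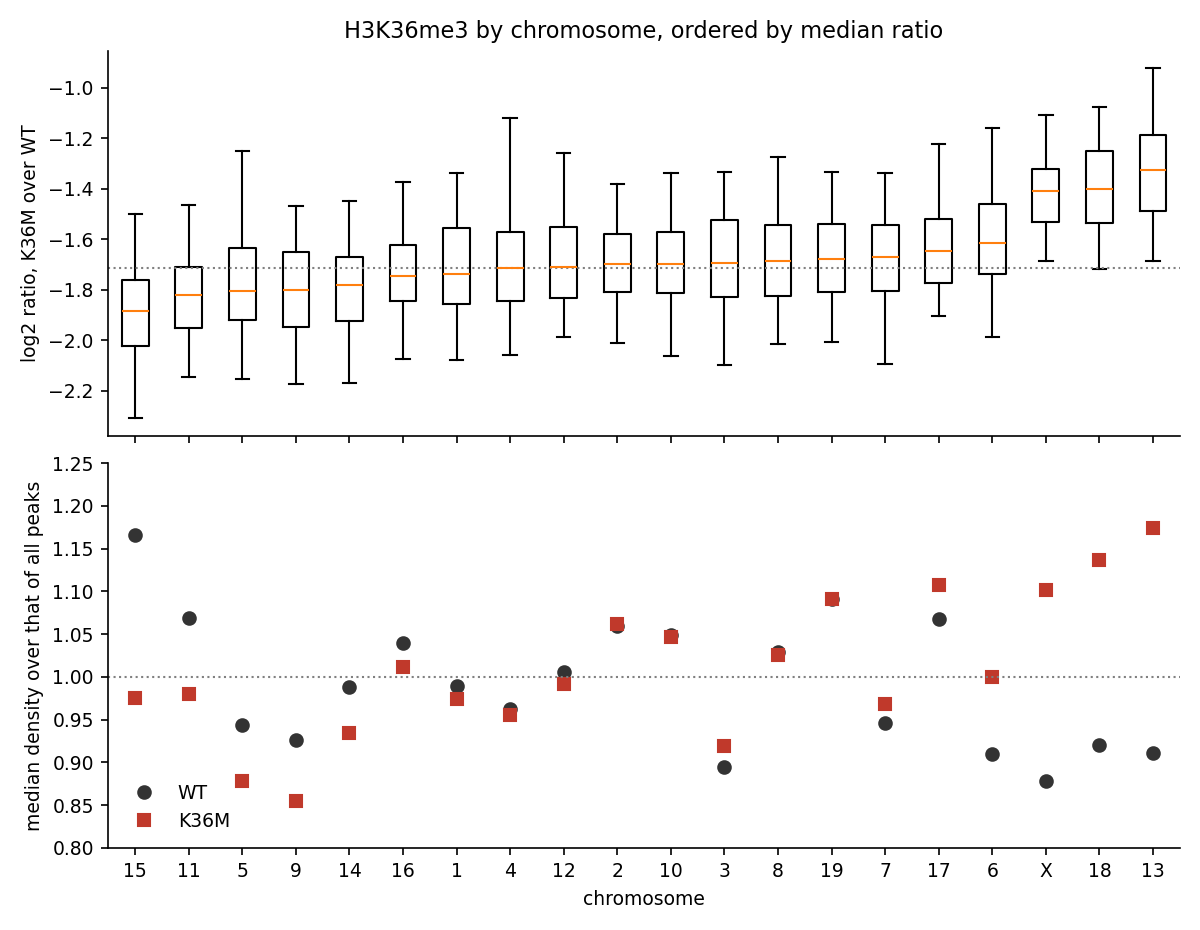
Top, log2 ratio of K36M over WT by chromosome, ordered by median (box, quartiles; line, median; whiskers, 5th to 95th percentile; dotted, median of all peaks). Bottom, each chromosome's median density over that of all peaks in WT (circles) and K36M (squares); chromosomes X, 18 and 13 are low in WT and high in K36M, and chromosome 15 is high in WT.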

How the data were processed

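H3K36me3 was measured by chromatin immunoprecipitation with a Drosophila spike-in after digestion with micrococcal nuclease, in 1 WT and 1 K36M library. The authors deposited 1 signal value per region and library, spike-in normalized reads, per the file headers. The submitters' processing notes name Bowtie 1.0.0 with builds mm9 and dm6. For the peak caller, its settings, the library used for calling and the scaling formula, nothing is given in the sources used here. The 2 input libraries were not analysed here. Starts are multiples of 200 and are printed as deposited. Adding 1 to both ends would give positions counted from 1.

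All WT values are whole multiples of 0.39 and all K36M values of 0.22. These are the largest steps that divide every value, which any column of rounded numbers has. Reading them as the value of 1 read is an assumption on which all counting intervals rest. It gives 11294217 WT and 6095048 K36M reads in regions, with medians of 1715 and 923 per region and at least 65 and 19. Regions were compared as K36M over WT, without a pseudocount. Reads from PCR are not independent molecules.

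Members and gene lists were chosen with earlier results of these data known. Named regions were, from 100 kb, the 8 lowest and 8 highest ratios and the 6 highest WT values, then the longest region, the 4 densest in each library, the 4 lowest and highest ratios below 12 kb with at least the median signal of that class, and all listed genes. Gene symbols come from gene positions recalled from memory, in many cases on GRCm38 and shifted to mm9 by the offset of other genes. Those of the extreme domains were assigned after the regions were seen, and the positions were then compared with the GRCm38.p6 gene table, which is no independent check. The 8 least certain symbols were dropped, and none should be used without an mm9 annotation. The calculations were tested on simulated counts. Alternatives were a pseudocount, a filter on low signal, autosomes, other scaling, thresholds and lengths, and leaving out chromosomes 13, 15 and 18. Computations used Python 3.11.15, numpy 2.4.6, pandas 2.3.3, scipy 1.17.1 and matplotlib 3.10.9.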

Additional observations from a re-analysis of the deposited data

How the results depend on the processing

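All sizes depend on the spike-in scaling. With both libraries scaled to the same total, the ratio of totals is 1 by construction. The median log2 ratio is then 0.0030, and 10 regions are at least 2-fold and 1 at least 4-fold lower. The ratio of totals was 0.304. It was 0.302 in regions with at least the median signal, 0.304 on autosomes, 0.305 without the 1% of regions of highest signal and 0.303 without chromosomes 13, 15 and 18. Factors rounded to 2 decimals, a range chosen after seeing the data, allow 0.294 to 0.315. In regions with at least the median signal, the median log2 ratio was −1.73, and the counts, over fewer regions, were 2492 at least 2-fold and 248 at least 4-fold lower. A pseudocount of 55.2, the 5th percentile of all values, gave a median of −1.45 and 80 regions at least 4-fold lower in place of 498. The gap between long and short peaks was −0.11 with limits of 50 and 20 kb and −0.097 at densities between the quartiles. The ratio of density SDs was 1.26 from 20 kb and 1.27 from 100 kb, the latter chosen after seeing the data. The other 21 of 40 alternative values stayed within the binomial interval of a median, within 0.05 of the ratio of SDs or within 1.5 times a count, among them all 10 for chromosomes 11, 13, 15, 18 and X. No paired analysis was possible because each genotype has 1 library, and no replicate could be left out. Regions with few reads, such as the one with 19, are limited by counting.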

Other observations

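The 4 densest WT regions were all below 12 kb, and 2 of them are given a gene name here. Rpl3, which encodes a protein of the large ribosomal subunit, had the highest WT density, with 65.6 normalized reads per kb in WT against 19.6 in K36M over 7.8 kb on chromosome 15, 3.34-fold lower (3.04 to 3.67). Id1, an inhibitor of basic helix-loop-helix factors on chromosome 2 from 152562200 to 152564599, had 50.2 and 12.3 per kb, 4.09-fold lower (3.33 to 5.04).

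The 4 highest K36M densities were at regions without a gene name here, and 3 of them were also in the H3K36me2 table. A 3.2 kb region on chromosome 1, from 26742600 to 26745799, had 53.1 normalized H3K36me3 reads per kb in WT against 23.5 in K36M, a ratio of 0.442, and the H3K36me2 peak there had a ratio of 0.452. A 7.8 kb region on chromosome 5, from 15194800 to 15202599, had 42.0 and 21.9, a ratio of 0.522. There the overlapping H3K36me2 had a ratio of 0.530, and H3K27me3 had 190 in WT against 366 in K36M. A 5 kb region on chromosome 6, from 47596600 to 47601599, had 43.0 and 21.2, with H3K36me3 and H3K36me2 ratios of 0.492 and 0.520. The fourth, 1.4 kb on chromosome X from 4780400 to 4781799, had 38.4 and 21.5, a ratio of 0.560. Read as whole reads, the regions on chromosomes 1, 5, 6 and X had 436, 839, 551 and 138 in WT. In K36M they had 342, 777, 481 and 137. The input libraries were not analysed, so the part of background in these regions was not tested. The first listed window of chromosome 11, from 3000000 to 3004999, had a H3K36me3 ratio of 0.622 and an H3K36me2 ratio of 0.439.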
